A study of Mus musculus with 6 samples.

Results

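The complement and coagulation genes described here are 45 named genes of the plasma protein cascades, of which 40 were measured among the 22180 genes of the array table. They were compared between livers of 3 C57BL/6 male mice expressing GFP (mice 13, 21 and 6) and livers of 3 C57BL/6 male mice expressing SHH, the Sonic Hedgehog ligand (mice 26, 28 and 31). Per the series' design text the genes were brought into the liver by hydrodynamics-based transfection, in which DNA is injected rapidly in a large volume, and the question was how SHH affects liver fibrosis and its genes. All mice were kept free of specific pathogens and received no further treatment. The labels give neither the age of the mice, the time after injection, the vector nor the promoter that drives the transgene. Where several probe sets named only that gene, the one with the highest average signal represented it. Masp2 and Klkb1 share their probe set with another gene and were left out by that rule, and C3, Cfd and Cpb2 were not analysed here.

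Complement is a chain of plasma proteins that marks microbes and damaged cells and punches pores into them. It starts from C1q bound to antibody (the classical pathway), from mannose-binding lectins, or by itself on surfaces (the alternative pathway), and all routes meet at C3 and end in the membrane attack complex. Coagulation is a parallel cascade of proteases that ends with thrombin cutting fibrinogen into fibrin, and plasminogen later dissolves the clot. Hepatocytes make most of these proteins, and many of them, fibrinogen above all, are acute phase proteins that the liver makes more of under IL-6 through the transcription factor STAT3. C1q is an exception, since macrophages make it, and properdin, the receptors and thrombomodulin likewise come mainly from other cells.

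The starts of the 3 fibrinogen genes and of 2 C1q genes are shown because these families are compared below. Each window runs from 250 bases before to 50 bases after the start of the RefSeq gene model (build GRCm38.p6), 5′ to 3′ on the gene's own strand. Capitals mark matches on either strand to CTGGGAA, the core of the IL-6 response element bound by STAT3, to TTGCNNAA, a short C/EBP motif, and to GTTAAT, a short HNF1 motif. The windows are chr3:83025903-83026202 (plus strand) for Fga, chr3:83049814-83050113 (minus strand) for Fgb, chr3:83007474-83007773 (plus strand) for Fgg, chr4:136886151-136886450 (minus strand) for C1qb and chr4:136892865-136893164 (minus strand) for C1qc.
Fga: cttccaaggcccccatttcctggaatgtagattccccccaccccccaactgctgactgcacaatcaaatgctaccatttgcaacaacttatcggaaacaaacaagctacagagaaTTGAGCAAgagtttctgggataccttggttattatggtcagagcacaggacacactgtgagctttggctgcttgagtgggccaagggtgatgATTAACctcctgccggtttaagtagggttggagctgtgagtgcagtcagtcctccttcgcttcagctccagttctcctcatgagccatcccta
Fgb: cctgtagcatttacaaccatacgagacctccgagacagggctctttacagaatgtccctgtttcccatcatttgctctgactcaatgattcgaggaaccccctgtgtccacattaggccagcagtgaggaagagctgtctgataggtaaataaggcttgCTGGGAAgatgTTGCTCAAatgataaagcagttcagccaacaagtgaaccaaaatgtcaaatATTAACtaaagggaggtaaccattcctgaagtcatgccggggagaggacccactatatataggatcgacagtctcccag
Fgg: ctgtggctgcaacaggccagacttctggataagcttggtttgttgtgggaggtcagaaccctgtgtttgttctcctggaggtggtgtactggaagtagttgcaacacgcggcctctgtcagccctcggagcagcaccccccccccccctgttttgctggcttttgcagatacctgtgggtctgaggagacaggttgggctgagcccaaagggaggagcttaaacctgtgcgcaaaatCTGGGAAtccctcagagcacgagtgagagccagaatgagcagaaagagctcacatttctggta
C1qb: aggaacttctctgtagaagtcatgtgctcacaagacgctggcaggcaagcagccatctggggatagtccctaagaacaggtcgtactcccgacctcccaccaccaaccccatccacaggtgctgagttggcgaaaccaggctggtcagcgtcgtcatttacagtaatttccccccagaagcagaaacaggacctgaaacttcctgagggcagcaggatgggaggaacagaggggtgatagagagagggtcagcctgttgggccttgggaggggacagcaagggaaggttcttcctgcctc
C1qc: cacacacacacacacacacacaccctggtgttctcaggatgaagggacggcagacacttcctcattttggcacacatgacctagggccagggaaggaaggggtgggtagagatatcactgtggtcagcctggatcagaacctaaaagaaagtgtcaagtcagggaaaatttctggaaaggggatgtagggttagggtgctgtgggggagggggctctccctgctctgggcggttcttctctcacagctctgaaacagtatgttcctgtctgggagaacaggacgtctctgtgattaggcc

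The Fgb window held all 3 motifs, with CTGGGAA beginning 91, TTGCNNAA 80 and the HNF1 match 29 bases before the start. The Fga window held TTGCNNAA beginning 135 and the HNF1 match 43 bases before the start, and no CTGGGAA. The Fgg window held CTGGGAA, beginning 13 bases before the start, and neither of the other motifs. None of these 3 motifs was found in the C1qb or C1qc window, but a looser STAT motif, TTNCNNNAA, was found in both, beginning 124 and 93 bases before the start in C1qb and 82 and 81 in C1qc. That motif also lay in the Fga and Fgb windows and not in the Fgg window. Of 37 windows for 35 listed genes, 6 held CTGGGAA (C1ra, C6, F9, Fgb, Fgg and Masp2), against 11.1% of all 32851 windows in the table. TTGCNNAA was in 10 windows (10.8% of all windows) and GTTAAT in 11 (7.1%), the latter including C8a, C8b, Hc, C4bp, F2, F13b and Proz. TTNCNNNAA lay in 18 of the 37 windows and in 36.6% of all. Its matches can overlap those of CTGGGAA (in F9 and Masp2) and of TTGCNNAA (in Fgb). A match describes letters in a window and does not show that a factor binds there.

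The 41345 log2 signals of an array had a median of 4.32 to 4.40 and a maximum of 13.66 to 13.72. Shh signal was 3.43, 3.67 and 3.86 in GFP livers 13, 21 and 6 and 4.57, 4.28 and 4.63 in SHH livers 26, 28 and 31, so the groups did not overlap (difference 0.84, interval 0.48 to 1.19; limma, adjusted p = 0.356). Arrays of 1 group correlated no better with each other (Pearson r over probe sets 0.975 to 0.979) than with arrays of the other group (0.971 to 0.981). The hepatocyte markers Alb (13.66 to 13.72 over the 6 livers) and Ttr (13.23 to 13.32) were near the top of every array. Of 11 measured hepatocyte markers, 0 differed at an unadjusted p under 0.05 in limma. Alb, Ttr, Apob, Tat, Cps1 and Ahsg lay close to the highest signals of the arrays, where signals tend to level off and change can be understated.

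Most complement and coagulation genes had slightly higher signal in SHH livers. Of the 40 measured, 35 had a higher mean in SHH livers (87.5%), against 43.8% of all genes. The median difference of the 40 genes was 0.19 on the log2 scale, against -0.03 over all 22180 genes. No member passed the 0.05 threshold after Benjamini-Hochberg adjustment over all genes in limma, where 0% of all genes passed in either direction. Without SHH 26, 46 of all genes passed, and 0 of them were members. At an unadjusted p under 0.05, 11 members had higher signal and 0 had lower signal, against 3.33% of all genes in the upward and 4.01% in the downward direction. Leaving out 1 mouse gave 6 such members without GFP 13 and 7 without SHH 28 or SHH 31, and 8 to 12 without each of the others. In 15 members (37.5%) all 3 SHH values lay above all 3 GFP values, against 5.26% of all genes, and in 0 members all lay below, against 7.25%. These 15 and the 11 overlap and together make 16 genes. Among the 11090 genes above the median level, where 39 of the 40 members lie, the same shares were 4.23% (higher at an unadjusted p under 0.05), 6.62% (all SHH above all GFP) and 45.3% (higher mean). That set does not match the members in level, since 13 of the 40 lay above the 99th percentile of the arrays. The differences were small, the largest being 1.68-fold for C1qb.

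**Figure D1:**
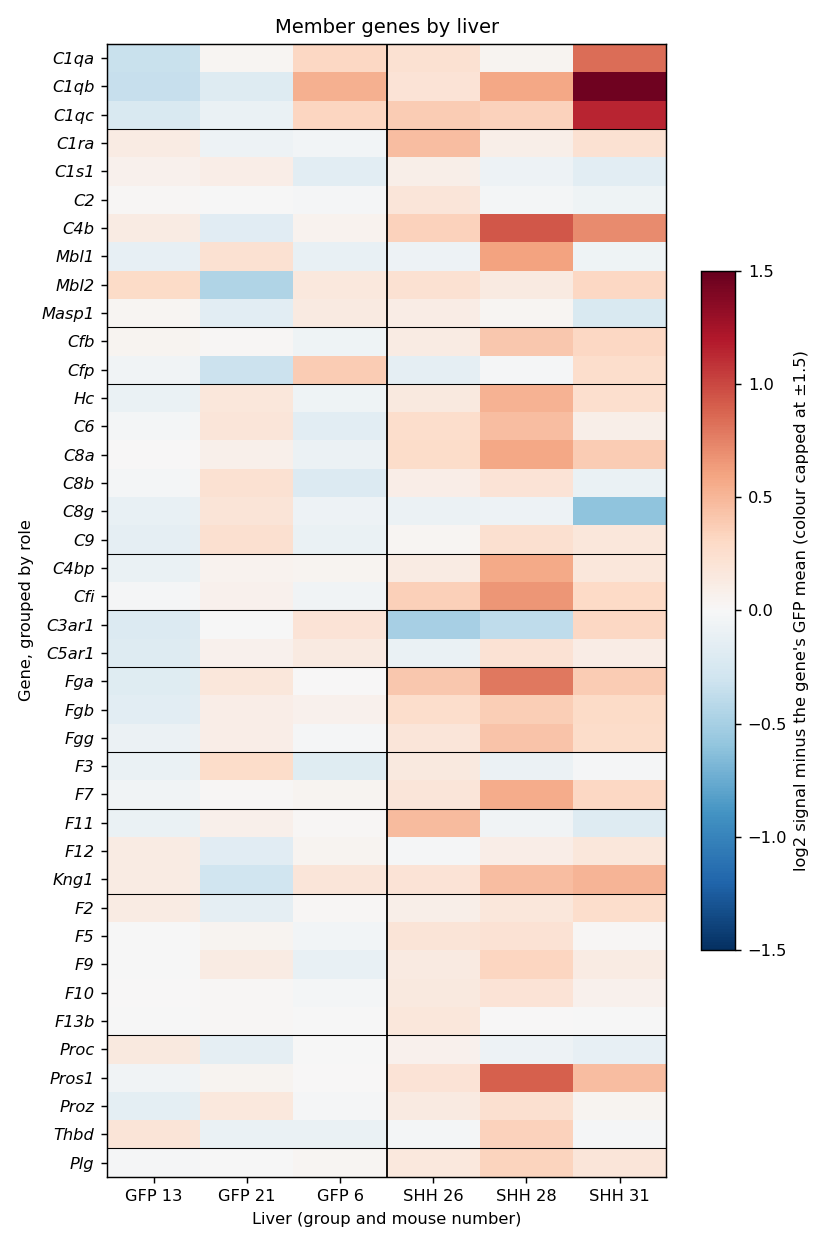
Log2 signal of each of the 40 genes (rows, grouped by role and separated by lines) in each of the 6 livers (columns), as the difference from the gene's mean in the 3 GFP livers. Red is higher and blue is lower, with the colour capped at 1.5. The 3 C1q genes are reddest in SHH 31, while the fibrinogen chains, C4b, Cfi and Pros1 are high in all 3 SHH livers, with their highest values in SHH 28.

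C1q, the recognition protein of the classical pathway, is built from the products of 3 genes that lie next to each other on chromosome 4. C1qb signal was 7.12, 7.26 and 7.99 in GFP livers 13, 21 and 6, and 7.66, 8.04 and 8.92 in SHH livers 26, 28 and 31. GFP 6 lay above SHH 26, so the groups overlapped, and SHH 31 was highest by far. The difference was 0.75 on the log2 scale (95% interval 0.01 to 1.50; limma, adjusted p = 0.677).

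C1qc signal was 5.78, 5.90 and 6.33 in the GFP livers in the same order, and 6.38, 6.35 and 7.14 in the SHH livers. The groups did not overlap, but only 0.02 separated SHH 28 from GFP 6. The difference was 0.62 (interval 0.09 to 1.16; limma, adjusted p = 0.634). C1qa signal was 6.68, 7.04 and 7.33 in the GFP livers and 7.24, 7.05 and 7.85 in the SHH livers, which overlapped (difference 0.37, interval -0.16 to 0.90; limma, adjusted p = 0.795). All 3 chains were highest among SHH livers in SHH 31 and highest among GFP livers in GFP 6. Without SHH 31 the differences were 0.13, 0.40 and 0.36 for C1qa, C1qb and C1qc.

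Macrophage markers moved with the C1q genes from liver to liver. The mean shift of the 3 C1q genes from their GFP means was -0.30, -0.09 and 0.39 in GFP livers 13, 21 and 6, and 0.27, 0.32 and 1.15 in SHH livers 26, 28 and 31. That of 16 macrophage markers was -0.22, -0.27 and 0.48 in the GFP livers and 0.32, 0.45 and 1.29 in the SHH livers. All 16 markers were highest among SHH livers in SHH 31, and 15 of them were highest among GFP livers in GFP 6. Of all genes, 11.7% were highest in both of these livers. The order was not particular to macrophage markers. Of 10 endothelial markers, 9 were highest among SHH livers in SHH 31 and 9 among GFP livers in GFP 6, although all 10 had lower means in SHH livers. Of the 16 macrophage markers, 15 had higher means in SHH livers and 9 were higher at an unadjusted p under 0.05 (3.33% of all genes). Among these were Adgre1 (1.78-fold), the Kupffer cell lectin Clec4f (1.52-fold) and the growth factor receptor Csf1r (1.59-fold). In these 3 genes GFP 6 lay above at least 1 SHH liver, so the groups overlapped. All SHH values lay above all GFP values in 4 of the 16, against 5.26% of all genes. The mean log2 signal of the macrophage list ran from 6.10 to 6.85 in GFP livers and from 6.69 to 7.65 in SHH livers, and no marker was listed at 0. The part of macrophage content in the C1q values was not tested, and in whole liver more cells of a type and more RNA per cell cannot be told apart.

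The proteases and substrates that follow C1q and the mannose-binding lectins gave a mixed picture, in which 5 of 7 measured genes had higher means and 1, C4b, was higher at an unadjusted p under 0.05. C4b encodes complement C4, which the C1 and lectin proteases cut first. Its signal was 10.45, 10.14 and 10.37 in GFP livers 13, 21 and 6, and 10.66, 11.25 and 11.02 in SHH livers 26, 28 and 31. The groups did not overlap, and SHH 26 stood closest to the GFP livers. The difference was 0.66 (1.58-fold, interval 0.27 to 1.05), the smallest p of the 40 genes (limma, adjusted p = 0.473).

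The close relative C4a had the opposite sign, with 7.31, 6.97 and 7.23 in the GFP livers and 6.71, 7.16 and 6.91 in the SHH livers (difference -0.25, interval -0.61 to 0.11). Probes of such near-identical genes can share signal, so the split between them is uncertain, and the same holds for C1ra with C1rb and C1s1 with C1s2. C1ra, a C1 protease, was 6.75, 6.55 and 6.60 in the GFP livers and 7.10, 6.73 and 6.86 in the SHH livers (difference 0.26, interval -0.05 to 0.58). Its partner C1s1 differed by -0.05, with its other probe set at -0.13, and C2, the next substrate, by 0.03 (interval -0.25 to 0.31).

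The mannose-binding lectins Mbl1 and Mbl2, which recognise sugars on microbes, differed by 0.15 and 0.23, with intervals of -0.31 to 0.61 and -0.21 to 0.66. Mbl1 stood at 10.14 in SHH 28 and between 9.42 and 9.77 in the other 5 livers, and without SHH 28 its difference was -0.07. Mbl2 was low in 1 liver, GFP 21, at 9.37, and between 9.97 and 10.14 elsewhere, and without GFP 21 its difference was -0.00. The lectin pathway protease Masp1 differed by -0.03. For both lectins 1 liver thus carried the whole difference.

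In the alternative pathway, Cfb, which supplies the protease of its C3 convertase, had a mean of 10.96 ± 0.05 (SD, n = 3) in the GFP livers and was 11.08, 11.37 and 11.27 in the SHH livers. The groups did not overlap (difference 0.28, 1.21-fold, interval -0.01 to 0.57; limma, adjusted p = 0.694). Cfp, the stabiliser properdin, which myeloid cells make, ran from 6.12 to 6.83 in GFP livers and from 6.32 to 6.71 in SHH livers. Those ranges nested within each other, and the difference was 0.04 (interval -0.40 to 0.48).

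The terminal pathway, which builds the membrane pore, had higher means for 5 of 6 genes, and only C8a was higher at an unadjusted p under 0.05. C8a signal was 11.19, 11.26 and 11.09 in GFP livers 13, 21 and 6, and 11.45, 11.75 and 11.55 in SHH livers 26, 28 and 31, without overlap (difference 0.41, 1.33-fold, interval 0.11 to 0.71; limma, adjusted p = 0.556). The protein C8 is assembled from the products of C8a, C8b and C8g, and the first pair are direct neighbours on chromosome 4. C8b differed by 0.07 (interval -0.28 to 0.42) and C8g by -0.26 (interval -0.65 to 0.14), and C8g was lowest in SHH 31 at 9.95 against 10.44 to 10.74 in the GFP livers. The intervals of the 3 chains overlapped, and differences between chains were not tested.

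Hc, the mouse gene for C5, was 11.88, 12.16 and 11.92 in the GFP livers and 12.13, 12.51 and 12.24 in the SHH livers. GFP 21 reached just above SHH 26, and the difference was 0.31 (interval -0.02 to 0.64). C6 and C9, which join the growing pore, differed by 0.27 and 0.15, with intervals of -0.07 to 0.61 and -0.18 to 0.47. All 6 terminal genes were highest among SHH livers in SHH 28 and highest among GFP livers in GFP 21.

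Of the complement inhibitors among the 40 genes, Cfi and C4bp, both had all SHH values above all GFP values. Cfi, the protease that cuts C3b and C4b apart, was 11.42, 11.49 and 11.38 in the GFP livers and 11.79, 12.09 and 11.73 in the SHH livers (difference 0.44, 1.36-fold, interval 0.13 to 0.75; limma, adjusted p = 0.552). C4bp, its cofactor, was 10.90, 11.06 and 11.04 against 11.12, 11.56 and 11.17 (difference 0.28, 1.22-fold, interval -0.06 to 0.62; limma, adjusted p = 0.744). SHH 28 was highest for both, and without it the C4bp difference was 0.14. Among other plasma inhibitors, from the list of further complement genes, Serping1 (0.31) and Vtn (0.29) also had groups that did not overlap, and Clu (0.24) had SHH 26 just below GFP 13.

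The receptors for the split products C3a and C5a sit on leukocytes, and 1 of the 2, C3ar1, had a lower mean in SHH livers. C3ar1 was 5.24, 5.44 and 5.65 in the GFP livers and 4.94, 5.06 and 5.76 in the SHH livers, so SHH 26 and SHH 28 were lowest of all and SHH 31 highest. Within each group C3ar1 thus ordered the livers as C1qb did, with GFP 6 and SHH 31 highest. The difference was -0.19 (interval -0.69 to 0.30), and without SHH 31 it was -0.44, the only case in which a member was lower at an unadjusted p under 0.05. C5ar1 ran from 3.88 to 4.21 in GFP livers and from 3.97 to 4.29 in SHH livers, below the median signal of every array, where an array tends to understate change (difference 0.07, interval -0.25 to 0.40).

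**Figure D2:**
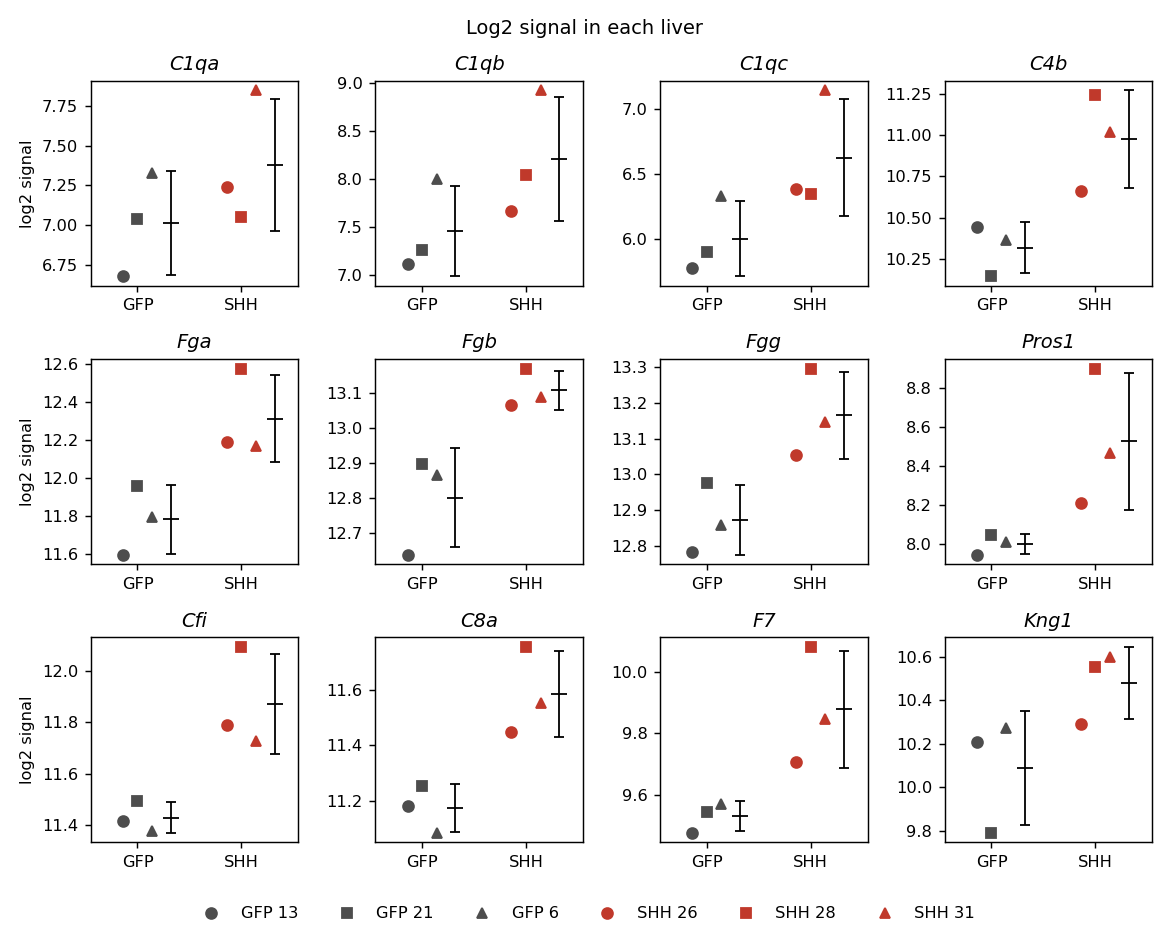
Log2 signal of 12 genes in each liver (vertical axes, a separate scale for each gene), with GFP livers in grey and SHH livers in red and a marker shape for each mouse. The black dash and bars beside each group are its mean and SD over 3 mice. The 3 C1q genes are highest in SHH 31 (red triangle), and in the other 9 genes SHH 28 (red square) is highest except in Kng1, where SHH 31 is.

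Fibrinogen, the protein that forms the clot, was the only role group in which every gene was higher at an unadjusted p under 0.05 and without overlap between groups. Fga, the alpha chain, was 11.60, 11.96 and 11.80 in GFP livers 13, 21 and 6, and 12.19, 12.57 and 12.17 in SHH livers 26, 28 and 31. The lowest SHH liver stood 0.21 above the highest GFP liver, and the difference was 0.53 (1.44-fold, interval 0.17 to 0.89; limma, adjusted p = 0.530).

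Fgb, the beta chain, was 12.64, 12.90 and 12.87 in the GFP livers and 13.07, 13.17 and 13.09 in the SHH livers (difference 0.31, 1.24-fold, interval 0.02 to 0.59; limma, adjusted p = 0.665). Fgg, the gamma chain, was 12.78, 12.98 and 12.86 against 13.05, 13.30 and 13.15 (difference 0.29, 1.22-fold, interval 0.00 to 0.58; limma, adjusted p = 0.675). Within each group the 3 chains put the same liver highest (SHH 28 and GFP 21), and GFP 13 was lowest in all 3. The 3 genes are direct neighbours on chromosome 3, and their start windows are those printed above. Fgb and Fgg signals lay close to the highest signal of any probe set on the arrays, where signals tend to level off. All 3 lay above the 99th percentile of every array, as did 13 of the 40 members. Leaving out any 1 mouse kept each difference positive, with values of 0.39 to 0.61 for Fga, 0.23 to 0.35 for Fgb and 0.23 to 0.35 for Fgg.

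The start of clotting lies with tissue factor, encoded by F3, and its partner factor VII. F3 was 5.21, 5.59 and 5.13 in the GFP livers and 5.46, 5.22 and 5.29 in the SHH livers, fully overlapping (difference 0.02, interval -0.33 to 0.37). F7 was 9.48, 9.54 and 9.57 against 9.71, 10.08 and 9.85, without overlap (difference 0.35, 1.27-fold, interval 0.04 to 0.65; limma, adjusted p = 0.645). The F7 neighbours on chromosome 8, F10 and Proz, differed by 0.14 each, with intervals of -0.12 to 0.40 and -0.16 to 0.44.

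Of the 3 measured genes of the contact system, which starts clotting on charged surfaces, Kng1 alone was higher at an unadjusted p under 0.05. Kng1 encodes kininogen, the source of bradykinin, and was 10.21, 9.79 and 10.27 in the GFP livers and 10.29, 10.55 and 10.60 in the SHH livers. The groups did not overlap, but only by a margin of 0.02 between GFP 6 and SHH 26 (difference 0.39, interval 0.02 to 0.76; limma, adjusted p = 0.667), and without GFP 21 the difference was 0.24. F12 differed by 0.08 (interval -0.21 to 0.38). F11 also differed by 0.08, with SHH 26 at 9.69 and the other livers between 9.02 and 9.29.

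The 5 factors of the common and intrinsic pathways all had higher means by small amounts, and 0 of them differed at an unadjusted p under 0.05. F2, which encodes prothrombin, was 11.84, 11.58 and 11.73 in the GFP livers and 11.81, 11.89 and 11.98 in the SHH livers (difference 0.18, interval -0.11 to 0.46). F9 (0.19) and F10 (0.14) had groups that did not overlap, with F9 separated by less than 0.01 and F10 at 10.04 to 10.09 against 10.13 to 10.28. F5, the cofactor of factor X, differed by 0.14 and the factor XIII carrier subunit F13b by 0.05, with intervals of -0.13 to 0.42 and -0.21 to 0.32.

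Among anticoagulants, Pros1, which encodes protein S, the cofactor of activated protein C, was 7.95, 8.04 and 8.01 in GFP livers 13, 21 and 6, and 8.21, 8.90 and 8.47 in SHH livers 26, 28 and 31. The GFP values lay within 0.10 of each other, and the SHH livers spread over 0.69 (difference 0.53, 1.44-fold, interval 0.13 to 0.93; limma, adjusted p = 0.576). Without SHH 28 the difference was 0.34. Protein C itself (Proc) differed by -0.04 (interval -0.34 to 0.25), and its endothelial activator thrombomodulin (Thbd) by 0.10, with 4.83 to 5.12 in GFP livers and 4.90 to 5.28 in SHH livers. Of the 7 genes of vitamin K dependent proteins (F2, F7, F9, F10, Proc, Pros1 and Proz), 6 had higher means, against 43.8% of all genes. At an unadjusted p under 0.05, 2 of these 7 were higher, against 3.33% of all genes.

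Plg, which encodes plasminogen, the precursor of the enzyme that dissolves fibrin, was 12.34, 12.36 and 12.39 in the GFP livers and 12.52, 12.70 and 12.55 in the SHH livers. All SHH values lay above all GFP values, and the difference was 0.23 (1.17-fold, interval -0.04 to 0.50; limma, adjusted p = 0.742).

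**Figure D3:**
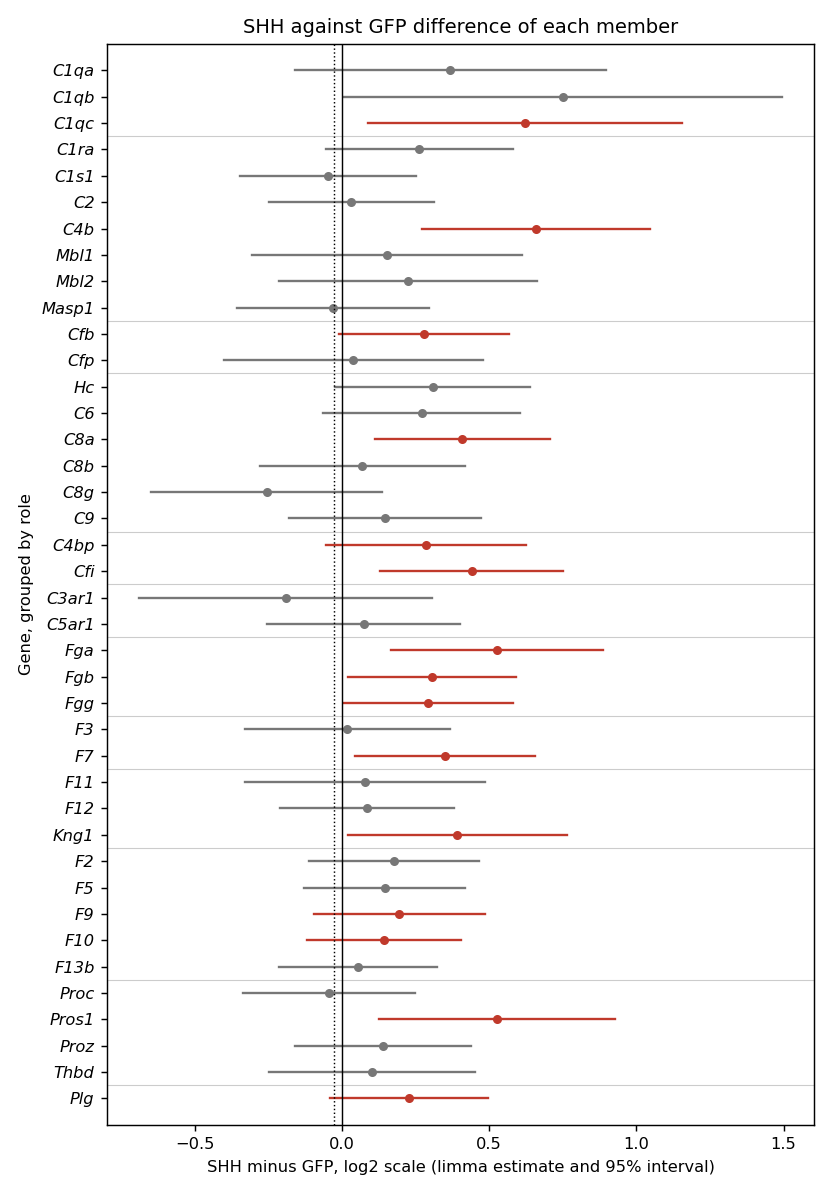
SHH minus GFP difference of each of the 40 genes on the log2 scale (horizontal axis), as the limma estimate (point) with its 95% interval (line), grouped by role. Red marks the 15 genes whose 3 SHH values all lie above their 3 GFP values, grey the others, and the dotted line is the median over all genes, -0.03. The 3 fibrinogen chains are red, and the intervals of 29 genes include 0.

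Some of the members shared their highest livers with the acute phase genes of the liver. Of the 40 members, 23 were highest among SHH livers in SHH 28, against 35% of all genes. Of the 11090 genes above the median level, 4446 were. Among the members, 17 were highest both in SHH 28 among SHH livers and in GFP 21 among GFP livers, against 12.5% of all genes. Those 17 include all 6 terminal genes, the fibrinogen chains, both inhibitors and Pros1. Of 22 measured acute phase genes outside the members, 19 were highest among SHH livers in SHH 28, and 15 had both features. The mean shift of the acute phase list was -0.06, 0.15 and -0.08 in GFP livers 13, 21 and 6, and 0.45, 2.21 and 1.66 in SHH livers 26, 28 and 31. Its mean log2 signal ran from 8.85 to 9.08 in GFP livers and from 9.39 to 11.14 in SHH livers. Of its 22 genes, 21 had higher means, against 43.8% of all genes. At an unadjusted p under 0.05, 18 were higher, against 3.33% of all genes. The part of the acute phase state in the members' values was not tested.

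The size of the shift was unlike between the members and the steepest genes of this list. The median difference was 0.90 over the list, whose genes ran from -0.10 to 4.30, and 0.19 over the members. Some genes of the list, such as Hp (0.57), Cp (0.44), Saa4 (0.42) and Crp (0.25), lay within the range of the members, -0.26 to 0.75. Others, such as Lcn2 (3.59) and Saa2 (3.46), lay far above it. Lcn2, an iron-trapping protein, ran from 5.19 to 6.13 in GFP livers and was 6.47, 11.31 and 10.06 in SHH livers 26, 28 and 31. Saa2, a serum amyloid, had a GFP mean of 7.13 ± 0.79 (SD, n = 3) and was 7.61, 12.85 and 11.33, and GFP 21 lay above SHH 26, so the groups overlapped. Orm2, an orosomucoid, ran from 7.45 to 7.86 and was 8.11, 12.49 and 11.86. Hp, which encodes the haemoglobin scavenger haptoglobin, ran from 12.23 to 12.40 and was 12.46, 13.21 and 12.99. SHH 26 thus stood near the GFP livers in these genes. The mean shift of the fibrinogen chains was 0.28, 0.53 and 0.31 in SHH livers 26, 28 and 31, and that of the 37 members other than C1q was 0.14, 0.28 and 0.14. In that last group SHH 26 and SHH 31 were alike, whereas the mean of the acute phase list stood far higher in SHH 31 than in SHH 26. Not every gene of the list followed its mean. In SHH 26 and SHH 31, Cp was 12.06 and 12.15, and Crp was 11.37 and 11.27.

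**Figure D4:**
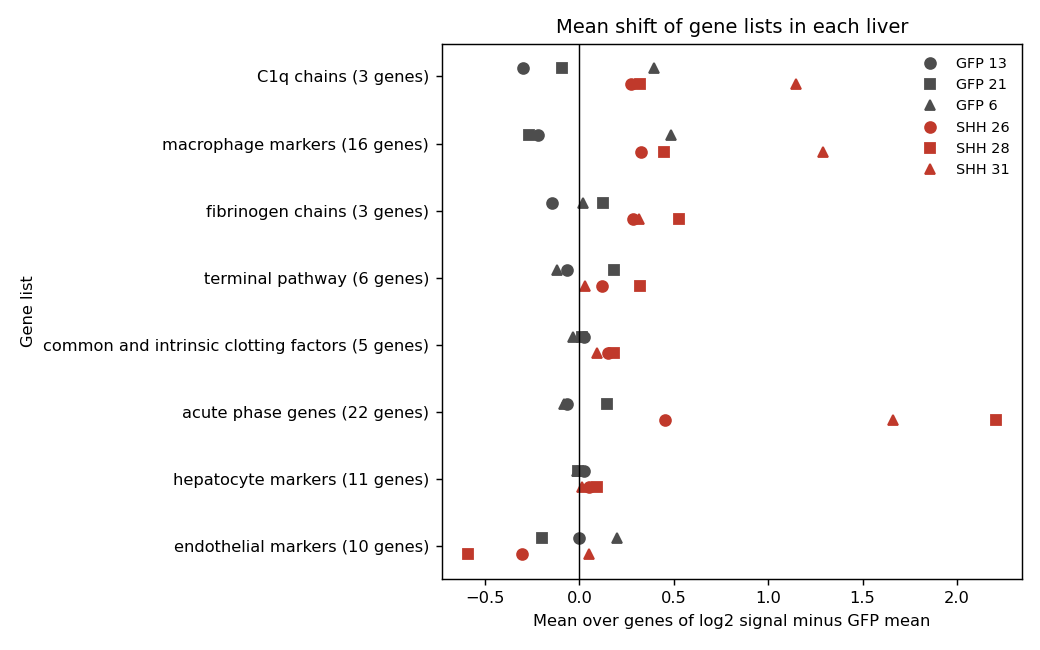
Mean shift of 8 gene lists (rows) in each liver, as the mean over the list's genes of log2 signal minus the GFP mean (horizontal axis), with GFP livers in grey and SHH livers in red. C1q genes and macrophage markers share the order of SHH livers, with SHH 31 highest at 1.15 and 1.29. In both of these lists GFP 6 lies above SHH 26 and SHH 28. Fibrinogen and acute phase genes instead have SHH 28 highest at 0.53 and 2.21. Hepatocyte markers stay between -0.01 and 0.10 in all livers, but several lie close to the highest array signals, where signals tend to level off.

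Other genes of the complement system were described from a list of 29, of which 27 were measured. Of these, 16 had higher means, against 43.8% of all genes, and 0 passed over all genes. At an unadjusted p under 0.05, limma gave 5 with higher signal, against 3.33% of all genes, and 3 with lower signal, against 4.01%. The higher ones were led by the leukocyte complement receptor chains Itgam (1.79-fold) and Itgb2 (1.78-fold), the Kupffer cell receptor Vsig4 (1.70-fold) and the collectin Colec10 (1.45-fold). Itgam was 3.98 to 4.18 in GFP livers and 4.46, 5.04 and 5.21 in SHH livers 26, 28 and 31, without overlap. Vsig4 overlapped, with GFP 6 at 7.54 and SHH 26 at 7.53. The lower ones were inhibitors that sit on cell membranes, Cd55 (1.43-fold lower), Cd59b (1.36-fold) and Susd4 (1.34-fold). Cd59b overlapped, with SHH 26 at 6.04 and GFP 6 at 5.95. Other membrane inhibitors of the list differed by 0.19 (Cd46), -0.10 (Cr1l) and -0.39 (Cd59a), with intervals that included 0. Susd4 was 7.52 to 7.63 in GFP livers and 6.84 to 7.32 in SHH livers, and Cd55 was lowest in SHH 28 at 5.45. None of these passed over all genes (limma, adjusted p of 0.409 for Itgam, 0.617 for Susd4 and 0.652 for Cd55).

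Of 34 other clotting, anticoagulant and fibrinolysis genes, 31 were measured, and 20 had higher means, against 43.8% of all genes. An unadjusted p under 0.05 was reached by 5 with higher signal, against 3.33% of all genes. It was reached by 1 with lower signal, against 4.01%, and 0 passed over all genes. Fgl1, a fibrinogen-like protein secreted by hepatocytes, was 9.43, 10.11 and 9.32 in the GFP livers and 10.26, 11.76 and 11.54 in the SHH livers, without overlap (2.96-fold, interval 0.72 to 2.41 on the log2 scale; limma, adjusted p = 0.409). Serpina10, the inhibitor that works with protein Z, was 1.70-fold higher, with 11.42 in SHH 28 and 9.96 in SHH 26. GFP 21 stood at 10.01, so its groups overlapped. Fgl2, a membrane prothrombinase of macrophages and endothelium, was 1.57-fold and the carboxypeptidase subunit Cpn2 1.26-fold higher. Downward, the thrombin receptor F2rl3 was 1.24-fold lower, at a dim 4.36 to 4.59 in GFP livers and 4.12 to 4.31 in SHH livers.

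F8, which sinusoidal endothelium makes, was 7.74, 7.21 and 7.98 in the GFP livers and 7.25, 6.68 and 7.53 in the SHH livers, overlapping (difference -0.49, interval -1.06 to 0.08). All 10 endothelial markers had lower means in SHH livers. Their mean shifts were -0.30, -0.59 and 0.05 in SHH livers 26, 28 and 31 and -0.00, -0.20 and 0.20 in GFP livers 13, 21 and 6. At an unadjusted p under 0.05, 1 of them (Emcn) was lower, against 4.01% of all genes. The list's mean log2 signal ran from 6.30 to 6.70 in GFP livers and from 5.91 to 6.55 in SHH livers, and Pecam1 differed by -0.07. The part of endothelial content in the F8 value was not tested. Vkorc1, the vitamin K reductase, differed by -0.22 and Tfpi2, a protease inhibitor, by -0.19, and both intervals included 0. Platelet markers, a possible source of clotting transcripts from blood, had 6 of 6 means higher, against 43.8% of all genes. At an unadjusted p under 0.05, 0 of them differed, and Pf4 was 2.91 to 3.57 in GFP livers and 3.27 to 3.49 in SHH livers.

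Of 15 measured transcription factors and IL-6 signalling genes, 12 had higher means, against 43.8% of all genes. At an unadjusted p under 0.05, 4 of the 15 were higher, against 3.33% of all genes. Socs3, the feedback inhibitor induced by STAT3, was 5.74, 5.29 and 5.43 in the GFP livers and 6.04, 7.16 and 6.64 in SHH livers 26, 28 and 31 (2.18-fold; limma, adjusted p = 0.409). Stat3 itself was 8.66, 9.35 and 8.93 against 9.40, 10.09 and 9.55 (1.63-fold; limma, adjusted p = 0.556). In both genes the groups did not overlap and SHH 28 was highest, as in the fibrinogen chains. Among GFP livers Stat3 was highest in GFP 21 and lowest in GFP 13, as were those chains. Socs3 had the reverse, with GFP 13 highest and GFP 21 lowest. Foxa3, a hepatocyte transcription factor, was 1.56-fold and the IL-6 receptor chain Il6ra 1.48-fold higher, and Il6ra was highest in SHH 26 (8.83). Cebpa, which drives many hepatocyte genes, was 9.61 to 9.65 in GFP livers and 9.26 to 9.57 in SHH livers (difference -0.22, interval -0.50 to 0.07). The hepatocyte regulators Foxa1 and Nr5a2 differed by -0.08 and -0.04, and both intervals included 0. So did the intervals of Il6st (0.17), Cebpb (0.14), Jak1 (0.10) and Cebpd (0.08). Il6 itself was dim, at 1.89 to 2.24 in GFP livers and 2.03 to 2.47 in SHH livers (difference 0.10, interval -0.27 to 0.47).

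Neutrophils and lymphocytes are further cells that whole liver holds. Of 12 neutrophil markers, 12 had higher means and 6 were higher at an unadjusted p under 0.05. S100a9 was 3.38 to 3.60 in GFP livers and 4.09, 5.83 and 6.03 in SHH livers 26, 28 and 31. The mean log2 signal of the neutrophil markers ran from 3.50 to 3.72 in GFP livers and from 3.77 to 4.72 in SHH livers. Of 11 measured T and B cell markers, 11 had higher means and 4 were higher at an unadjusted p under 0.05. Over all genes the shares were 43.8% with a higher mean and 3.33% higher at that p. Stellate cell markers had 9 of 10 means higher with 1 at an unadjusted p under 0.05, and bile duct markers 2 of 5 with 0. How far these cells contribute to the members' signal was not tested.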

How the data were processed

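Total RNA of 6 mouse livers was labelled with biotin and hybridised to 1 array per liver, per the labels' protocols. The authors deposited log2 signals made with RMA, per the submitters' processing notes, which corrects background, equalises the arrays' distributions and summarises probes. Which version and probe annotation they used is not given in the sources used here. Differences of very dim probe sets tend to be flattened in such values, and very bright signals tend to level off on arrays. Of 41345 probe sets, 23521 named 1 gene, 1814 several, and 16010 were unnamed here, which gave 22180 genes. Groups were tested two-sided with lmFit and eBayes of limma 3.58.1 (R 4.3.3), without covariate and without a filter on level, with Benjamini-Hochberg adjustment over all genes and a threshold of 0.05. Intervals are 95% intervals of that fit. Nothing in the labels names a batch, and mouse numbers are not shared between groups. An exact permutation test of 3 against 3 cannot go below p = 0.1, so none was run. The number of arrays limits the precision. The limma fit was tested on simulated data with changes larger than those of the members.

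Described genes were all members, the 4 other pathway genes per list and direction with the smallest p, as far as the text needs them, and set acute phase and marker genes. Emcn was named after its value was seen, as were Il6, Il6st, Jak1, Cebpb, Cebpd, Cd46, Cd59a and Cr1l. Members, lists and tests were chosen with earlier results of these data known. Promoter windows and gene order come from RefSeq tables of GRCm38.p6, in which 35 of the 45 listed genes had a window. Alternatives were another probe set per gene or their mean, a filter on level, a second quantile normalization, equal medians, trended or robust priors, array weights, every probe set on its own, a threshold of 0.1, and each mouse left out.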

Additional observations from a re-analysis of the deposited data

How the results depend on the processing

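Under every alternative listed under the processing, limma called 0 members over all genes, including at a threshold of 0.1 and with every probe set tested on its own. Among all genes, 46 were called at 0.05 without SHH 26 (0 of them members), and 0 without any other mouse or in the refits by gene with all mice. The count of members higher at an unadjusted p under 0.05, 11 in the comparison reported, was 8 with array weights, 9 with a second quantile normalization, 10 with equal array medians, 14 with a trended prior and 11 in the other settings with all mice. With 1 mouse left out it ran from 6 (without GFP 13) to 12 (without SHH 26), and it was 7 without SHH 28 or SHH 31. The share of all genes higher at that p was 2.73% without GFP 13, 4.08% without SHH 26, 3.16% without SHH 28 and 2.82% without SHH 31. In every one of these 6 fits C4b, C8a, Cfi, Fga and Pros1 (5 genes) remained among them. The count of lower members ran from 0 to 1 with 1 mouse left out, the 1 being C3ar1 without SHH 31. The median difference of the members ran from 0.14 (without SHH 28) to 0.22 (without GFP 21), and 25 members kept a positive difference with any 1 mouse left out.

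Of 559 values of single members under alternatives, 22 in 13 genes changed sign, none of them in the 11 genes above. With array weights these were C1s1 (0.011) and Cfp (-0.080), and with a second quantile normalization Masp1 (0.016) and F3 (-0.0097). With 1 mouse left out, differences ran from -0.13 to 0.0042 for C1s1, -0.044 to 0.077 for C2, -0.072 to 0.27 for Mbl1, -0.0020 to 0.37 for Mbl2, -0.11 to 0.068 for Masp1 and -0.13 to 0.23 for Cfp. They ran from -0.034 to 0.18 for C8b, -0.025 to 0.16 for C5ar1, -0.074 to 0.16 for F3, -0.12 to 0.21 for F11, -0.0024 to 0.086 for F13b, -0.11 to 0.027 for Proc and -0.023 to 0.20 for Thbd. The cause was not tested. C5ar1 was left out where only genes above the median level were tested. No paired analysis was possible because each mouse number belongs to 1 group.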
